A study of Mus musculus with 4 samples.

Results

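Interferon-high granzyme-low CD8 T cells are lymph node T cells that carried transcripts of antiviral genes but almost none of the cytotoxic granule proteases. They were selected on their own UMIs (unique molecular identifiers, 1 per captured transcript), and the values used to choose them are given only as a description. A barcode was taken if its gene number lay between 500 and 5000, its UMI total did not exceed 40000 and less than 10% of that total was mitochondrial. It further needed at least 1 UMI of Cd3e or Cd3d, at least 1 of Cd8a or Cd8b1, and at least 6 UMIs of Ifit1, Ifit3, Isg15 and Rsad2 together. No more than 2 UMIs of Gzma and Gzmb and no more than 1 of Ly6a were allowed, and none of Trdc, H2-Aa, Cd79a or Mki67. This left 1766 of 43971 filtered barcodes (47820 before filtering), of which 39854 were CD8 αβ T cells by the same genes.

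The cells were sorted as CD8+ PD-1+ CD44+ from the tumor-draining lymph node (TdLN) of female C57BL/6 mice. All mice, controls included, carried B16F10GP melanoma, a B16F10 line transduced to express the glycoprotein of lymphocytic choriomeningitis virus as a model antigen. Tumors were treated with radiotherapy and a PD-L1-blocking antibody (RT + αPD-L1), with radiotherapy alone (RT), with the antibody alone (αPD-L1) or with neither (Control), and treated mice were sampled on day 7. Each treatment was 1 droplet library that pooled cells of 5 mice marked with hashtag antibodies, so the mouse was the replicate and treatment and library cannot be told apart. Per the study's methods, naive CD44- CD8 T cells of untreated control animals were sorted as well; the labels do not say whether any library holds them, and their part in the Control values was not tested.

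Type I interferons bind a receptor that activates the kinases JAK1 and TYK2, and these lead to the assembly of ISGF3, a transcription factor complex that holds IRF9 and enters the nucleus and switches on interferon-stimulated genes. Their products block viral replication, sense foreign nucleic acids, raise antigen presentation and damp the signal again. In T cells interferon also modulates survival, division and differentiation.

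Before the results, some facts of the libraries bear on all of them. They held 10157 to 12285 filtered barcodes with medians of 6437 to 7040 UMIs, and 39220 barcodes carried exactly 1 hashtag. Mice were unevenly represented, from 141 to 4783 cells. Several hashtags were found on 8.75% of the interferon-high granzyme-low barcodes in RT + αPD-L1, 11.8% in RT, 12.9% in αPD-L1 and 13.8% in Control, against 8.96%, 7.46%, 8.39% and 8.12% of all filtered barcodes of these libraries; such barcodes were left out of all values per mouse. Libraries shared 994 filtered barcodes, and 76 of the 1766 interferon-high granzyme-low barcodes also occurred in another library, 1 of them as such a cell in both. These cells were also deeper than interferon-low cells, which met every limit of the rule but had 0 or 1 UMI of the 4 interferon genes (20203 cells). The medians were 6237 against 5322 UMIs in RT + αPD-L1 and 7935 against 6296 in Control. What depth contributed is given beside the share below.

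The 4 genes that set the interferon limit have different tasks. Isg15 is a ubiquitin-like protein that is conjugated to other proteins, Ifit1 and Ifit3 are tetratricopeptide proteins that bind viral RNA or assist in it, and Rsad2 (viperin) makes a nucleotide that ends viral RNA chains. Isg15 was present in 97.9% of the 1766 cells, Ifit3 in 87.9%, Ifit1 in 81.1% and Rsad2 in 43.9%. All 4 were seen together in 612 cells (34.7%), and only 59 cells reached the limit with a single gene. Isg15 supplied 49.1% of the interferon UMIs. The summed interferon UMIs had a median of 11, quartiles of 8 and 18 and a highest value of 67. Just inside the limit, 405 cells had 6 or 7 UMIs, and just outside it 894 cells had 4 or 5. Between these 2 classes the level of Usp18, which the rule did not use, was 100.5 CPM inside and 65.7 CPM outside (CPM, UMIs of a gene scaled to a common total), so the limit cut through a gradient.

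The promoters of these genes carry the letters that interferon-activated factors read, and they are shown because the genes were measured together. ISGF3 and several IRF proteins bind the interferon-stimulated response element, which was searched as GAAANNGAAA on both strands (TTTCNNTTTC is its reverse complement). The windows ran from 250 bases before to 50 bases after each start in RefSeq, build GRCm38.p6. Matches are in capitals, with lower-case flanks of 15 bases, each sequence on the strand of its gene. The stretches lie at chr19:34640770-34640828 (Ifit1, plus strand), chr19:34583358-34583431 (Ifit3, plus), chr4:156200860-156200911 (Isg15, minus), chr12:26456548-26456587 (Rsad2, minus) and chr19:34607754-34607827 (Ifit3b, plus), all upstream of the transcript.
Ifit1: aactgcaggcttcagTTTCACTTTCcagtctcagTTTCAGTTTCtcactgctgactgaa
Ifit3: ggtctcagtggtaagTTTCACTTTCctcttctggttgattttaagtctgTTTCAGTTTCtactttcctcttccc
Isg15: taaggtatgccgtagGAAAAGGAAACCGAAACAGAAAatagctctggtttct
Rsad2: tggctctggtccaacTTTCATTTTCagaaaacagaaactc
Ifit3b: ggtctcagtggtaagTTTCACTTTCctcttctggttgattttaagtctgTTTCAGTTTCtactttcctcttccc

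Isg15 had 3 overlapping matches, Ifit1 and Ifit3 had 2 each and Rsad2 had 1. The stretches of Ifit3 and Ifit3b are the same letter for letter, as the genes are near-identical copies whose reads can be confused, and values of Ifit3b should be read with Ifit3 in mind. The motif was found in 1131 of 32851 windows (3.44%). Counted by gene, with a match in any window of the gene, it was found in 1079 of 27025 genes (3.99%). Of the genes measured in the comparison described next, 3653 had a window and 177 of these held the motif (4.85%). A match is a description of the window only, not a site in use.

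Interferon-high granzyme-low cells were set beside the interferon-low cells of the same mouse to describe what else they expressed. Because the rule itself divides these classes, this is a description and has no test. It used the 13 mice with at least 10 such cells each, and the measure was the log2 ratio of CPM with 10 CPM added to both classes. Of 4560 genes at 30 CPM or more, 170 (3.73%) were higher in every mouse and 129 (2.83%) were lower in every mouse. Of the genes higher in every mouse that had a promoter window, 46 of 136 (33.8%) held the motif above, against 2 of 100 (2.0%) of those lower in every mouse.

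Usp18 (ENSMUSG00000030107, chr6:121245906-121270917, plus strand), the protease that removes Isg15 and blunts the interferon receptor, is the marker of this class that stood outside the rule. In interferon-high granzyme-low cells it had 342, 306, 201 and 134 CPM in the RT + αPD-L1 mice. The RT mice had 161, 110.5, 107 and 240 CPM, the αPD-L1 mouse had 122 CPM and the Control mice had 172, 86.6, 125 and 183 CPM. Interferon-low cells of the same mice lay between 7.80 and 44.4 CPM. No mouse overlapped between the classes, and the median log2 ratio was 2.93.

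Other genes with the highest ratios were antiviral effectors and regulators. Ifit3b averaged 207.5 ± 97.5 CPM in interferon-high granzyme-low cells and 6.92 ± 5.59 CPM in interferon-low cells (SD, n = 13 mice; median log2 ratio 3.46). Isg20, an exonuclease that degrades RNA, averaged 224 ± 56.8 CPM and 28.1 ± 5.49 CPM (2.53). Irf7, the transcription factor that amplifies interferon production, averaged 394 ± 107 CPM and 72.6 ± 34.7 CPM (2.45). The growth-restraining Schlafen gene Slfn5 had a median log2 ratio of 2.38, the mitochondrial nucleotide kinase Cmpk2 of 2.36 and the receptor-transporting protein Rtp4 of 2.28. They were followed by Zbp1, a sensor of Z-form nucleic acids (2.19), the RIG-I-like receptor Dhx58 (2.12), the pro-apoptotic Xaf1 (2.10), Phf11b (2.10), the guanylate-binding protein gene Gbp6 (2.08), the oligoadenylate synthetase-like genes Oasl1 (2.07) and Oasl2 (2.0), and Gbp10 (1.98). Gbp6 and Gbp10, and Oasl1 and Oasl2, are related copies between which reads may be split. Every gene named here was higher in 13 of 13 mice, and among their promoters 3 of 9 with a window held the motif (Ifit3b, Slfn5 and Phf11b).

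**Figure D1:**
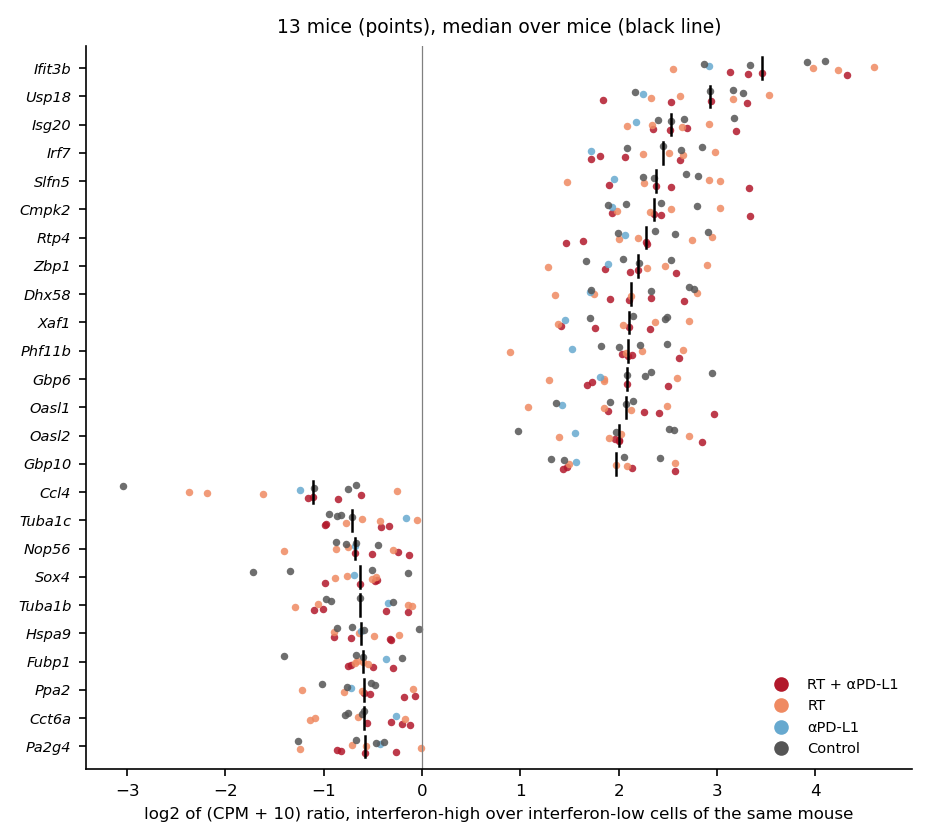
Log2 ratio of CPM (10 added) in interferon-high granzyme-low over interferon-low cells of the same mouse for the 15 highest and 10 lowest genes; each point is 1 of 13 mice coloured by treatment and the black line is the median. The medians run from 3.46 (Ifit3b) to 1.98 (Gbp10) above 0 and from -1.11 (Ccl4) to -0.58 (Pa2g4) below it.

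Interferon-stimulated genes outside the rule were counted by family. All measured members were higher in every mouse for the IFIT genes outside the rule (3 of 3), the ISG15 conjugation machinery (4 of 4), the oligoadenylate synthetases and their synthetase-like relatives (Oas1a, Oas3, Oasl1 and Oasl2, 4 of 4), the Schlafen genes (4 of 4) and factors such as Bst2 (tetherin), which holds budding virus at the membrane (8 of 8). The count was 12 of 14 for guanylate-binding proteins and immunity-related GTPases, 7 of 8 for the PYHIN family (not Aim2, a DNA sensor), 5 of 6 for nucleic acid sensors and 6 of 9 for interferon-induced PARPs and helicases. Among all measured genes the share was 3.73%, as above; the rule itself used interferon-stimulated genes, so nothing is read from these counts. Measured means 30 CPM or more in 1 class, which some genes reached only where they were high, such as Oasl1 and Ifit2 (47.7 CPM in interferon-high granzyme-low cells and 14.3 CPM in interferon-low cells). Ube2l6, the conjugating enzyme of Isg15, was under that level and higher in 12 of 13 mice. Ifi27l2a was the most abundant, with 3033 ± 641 CPM in interferon-high granzyme-low cells and 1198 ± 332 CPM in interferon-low cells (median log2 ratio 1.28). Bst2 averaged 495 CPM and 130 CPM. Samhd1, which depletes the nucleotides that viruses need, averaged 608 CPM and 225 CPM. Among the GTPases Ifi47 averaged 472 CPM and 190 CPM, and among the PYHIN genes Ifi203 averaged 478 CPM and 195 CPM. Ddx58 (RIG-I), a sensor of viral RNA, averaged 163 CPM and 50.7 CPM, and Herc6, the mouse ligase for Isg15, averaged 140 CPM and 40.1 CPM.

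Within the pathway, the transducers differed by role. Of 11 measured signaling genes, 4 were higher in every mouse, among them Irf9, the DNA-binding part of ISGF3, and Irf7. The receptor kinase gene Jak1 averaged 491 ± 48.0 CPM in interferon-high granzyme-low cells and 480.5 ± 33.6 CPM in interferon-low cells, and was higher in 6 of 13 mice. Of 4 measured receptor genes 0 were higher in every mouse, with Ifnar1, a chain of the type I receptor, higher in 5 and Ifnar2 in 9. Ifng, the type II interferon made by T cells, averaged 31.4 ± 13.7 CPM and 44.3 ± 12.2 CPM and was lower in 11 of 13 mice. Ifnb1, Ifna2 and Ifna4 had no UMI in either class, which at these depths says only that they were not detected.

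Antigen presentation genes were higher by less. Of 18 measured MHC class I genes, 11 were higher in every mouse, with a median log2 ratio of 0.35. H2-K1, a classical heavy chain, averaged 3135 ± 310 CPM in interferon-high granzyme-low cells and 2673 ± 188 CPM in interferon-low cells. The median of all measured genes was -0.07.

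The differentiation state of the class was described with T cell genes. Tcf7, encoding the stem-cell and memory factor TCF-1, averaged 600 ± 78.1 CPM in interferon-high granzyme-low cells and 546.5 ± 20.01 CPM in interferon-low cells and was higher in 11 of 13 mice. Of 15 measured naive and memory genes, 1 was higher in every mouse. Klf2, which maintains quiescence and egress from lymph nodes, was lower in 11 of 13 mice. S1pr1, the egress receptor that Klf2 induces, was higher in 1 of 13. Of 11 measured inhibitory receptor and exhaustion genes, Dapl1 (650 ± 143.5 CPM and 480 ± 64.6 CPM) and Ctla4 (235.5 ± 47.5 CPM and 178.5 ± 32.6 CPM) were higher in every mouse. Tox, the factor that drives exhaustion, averaged 139 ± 22.7 CPM and 145 ± 12.3 CPM.

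Of 9 measured effector and cytotoxic genes 0 were higher in every mouse, as were 0 of 16 genes of the response to the antigen receptor; with 3.73% of all measured genes higher in every mouse, such counts do not set these lists apart. Ccl4, a chemokine of activated T cells, was lower in all 13, with 22.5 ± 16.8 CPM in interferon-high granzyme-low cells and 60.7 ± 21.8 CPM in interferon-low cells (median log2 ratio -1.11). In the antigen receptor list, whose median log2 ratio of -0.07 equalled that of all measured genes, members went both ways. Its most abundant genes, Junb (1495 CPM) and Fos (629.5 CPM), had median log2 ratios of 0.06 and -0.04. The members that follow were named after their ratios were seen. The chemokine Xcl1 had a median log2 ratio of -1.37 and was lower in 12 mice, Tnfrsf9 (4-1BB) had -0.95 and was lower in 10, and Nr4a1 had -0.82 and was lower in 12. Cd69, which retains T cells in lymph nodes, had 0.42 and was higher in 12 mice, and the NF-κB inhibitor Nfkbia had 0.14 and was also higher in 12. After Ccl4, the lowest genes with 1 sign in every mouse were the tubulins Tuba1c (-0.71) and Tuba1b (-0.63), the nucleolar protein Nop56 (-0.68), Sox4 (-0.63), the mitochondrial chaperone Hspa9 (-0.62), Fubp1 (-0.60), Ppa2 (-0.59), the chaperonin subunit Cct6a (-0.59) and Pa2g4 (-0.58). Of 9 measured S phase genes 1 was lower in every mouse, beside 2.83% of all measured genes. Both classes were without Mki67 by the rule.

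Markers of other cells were looked for in the same sums. The B cell gene Ms4a1, the plasmacytoid dendritic cell gene Siglech, the myeloid genes Csf1r and Cd14 and the melanoma genes Mlana, Dct and Tyrp1 had no UMI in interferon-high granzyme-low cells of these mice. Cd4 was between 0 and 1.72 CPM. The macrophage gene Lyz2 was between 0 and 22.1 CPM, and the summed level of the monocyte and macrophage list was 0 to 22.1 CPM, against 4.38 to 19.5 CPM in interferon-low cells. The B cell list summed to 256 to 513 CPM in these cells and 238 to 338 CPM in interferon-low cells, most of it Ighm and Cd74. The γδ T cell list summed to 0 to 53.0 CPM and 9.76 to 26.0 CPM, and the dendritic cell list, nearly all of it Cst3, to 57.7 to 119 CPM and 79.9 to 107 CPM. The class II gene H2-Eb1 was at 30.9 CPM in the interferon-high granzyme-low cells of RT mouse 2, which also had the highest Lyz2 (22.1 CPM), and at 0 to 2.17 CPM in the other mice.

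The first question for treatment was how common the cells were. As a share of the CD8 αβ T cells of a mouse they made up 0.634%, 15.85%, 14.3%, 6.72% and 9.11% in the RT + αPD-L1 mice. In the RT mice they were 3.04%, 1.05%, 0.668%, 0.763% and 2.904%, in the αPD-L1 mice 0.260%, 2.11%, 0.395%, 0.426% and 0.265%, and in the Control mice 2.50%, 1.52%, 2.22%, 0.828% and 5.51%. Of the 5 RT + αPD-L1 mice, 4 lay above every mouse of the other groups, and 1 (mouse 1, 3 of 473 cells) lay below every RT and Control mouse. This mouse depended on the hashtag assignment: with HTODemux it had 2.11% (11 of 522 cells), above 4 of 5 RT mice and 3 of 5 Control mice. The counting error is small beside this spread: the exact binomial 95% interval of mouse 3 was 13.3% to 15.4% (621 of 4340 cells), while that of mouse 1 was 0.131% to 1.84%. Intervals cover counting error only.

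RT + αPD-L1 averaged 9.32% ± 6.12 against 2.52% ± 1.80 in Control (SD, n = 5 mice each), a difference of 6.81 percentage points (two-sided exact permutation test p = 0.0635, Benjamini-Hochberg adjusted over 5 comparisons p = 0.0794). Against RT (1.69% ± 1.18) the difference was 7.64 points (exact p = 0.0476, adjusted p = 0.0794) and against αPD-L1 (0.692% ± 0.798) it was 8.63 points (exact p = 0.0159, adjusted p = 0.0794). RT minus Control was -0.83 points (exact p = 0.460, adjusted p = 0.460), and αPD-L1 minus Control was -1.82 points (exact p = 0.0556, adjusted p = 0.0794). None passed 0.05 after adjustment; the smallest p that 5 against 5 mice can give is 0.00794. For the combination, whether a comparison passed depended on single mice and on the hashtag assignment. Without mouse 1 of RT + αPD-L1 the differences were 8.98 points from Control, 9.81 from RT and 10.8 from αPD-L1. The adjusted exact p was 0.0265 for each of these. Without αPD-L1 mouse 2, αPD-L1 minus Control was -2.18 points and the combination exceeded αPD-L1 by 8.99 points (both adjusted exact p = 0.0397). When mice were assigned by HTODemux, the function named in the study's methods, the combination differed from Control by 7.84 points, from RT by 8.69 and from αPD-L1 by 9.415 (adjusted exact p = 0.0397 each). That run kept 32282 barcodes with 1 hashtag against 39220. RT mouse 1 then had 109 CD8 αβ T cells against 790, Control mouse 1 had 655 against 1964 and combination mouse 3 had 2545 against 4340. What this loss contributed was not tested. With every cell thinned to 5000 UMIs the RT + αPD-L1 mice had 0.332%, 15.45%, 13.02%, 5.88% and 7.99%, and the Control mice had 1.44%, 0.779%, 1.497%, 0.458% and 4.92% (3510 and 2849 cells of these libraries were shallower and left out); 4 of 5 RT + αPD-L1 mice again lay above every Control mouse.

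**Figure D2:**
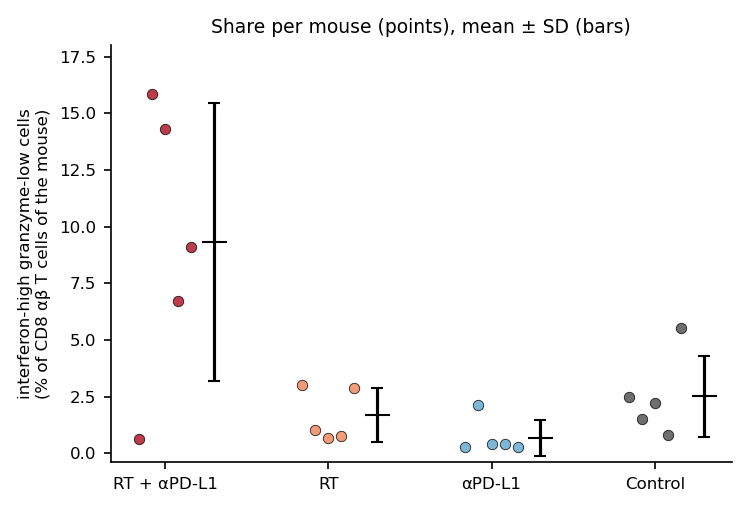
Share of interferon-high granzyme-low cells among CD8 αβ T cells, in percent, for each of 5 mice per treatment (points), with the mean and SD (bars). In RT + αPD-L1, 4 of 5 mice lie between 6.72% and 15.85%, above the highest Control mouse at 5.51%, and 1 lies at 0.634%.

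The granzyme and Ly6a limits removed many interferon-high cells, and not to the same extent in each library. Ly6a encodes Sca-1, a surface protein that interferon induces, and Gzma and Gzmb are the granzymes of cytotoxic granules. Of 3123 interferon-high CD8 αβ T cells in RT + αPD-L1, 38.8% were granzyme-low and Ly6a-low, against 67.7% of 251 in RT, 58.2% of 213 in αPD-L1 and 74.2% of 352 in Control. Cells over the Ly6a limit alone made up 46.7% in RT + αPD-L1, 27.9% in RT, 38.0% in αPD-L1 and 24.7% in Control. Cells over both limits were 12.5%, 3.19%, 3.76% and 0.284% of these libraries, and cells over the granzyme limit alone were at most 2.02%. By mouse, the granzyme-low Ly6a-low share of interferon-high cells was 33.4% to 68.5% in RT + αPD-L1 and 67.7% to 100% in Control, in some mice from 5 or fewer cells. Without both limits, interferon-high cells were 1.06%, 33.1%, 42.8%, 11.3% and 13.3% of the CD8 αβ T cells of the RT + αPD-L1 mice. They were 3.54%, 1.83%, 1.11%, 0.763% and 4.04% in RT, 0.260%, 3.73%, 0.746%, 0.6155% and 0.397% in αPD-L1, and 3.11%, 2.25%, 2.84%, 0.828% and 7.12% in Control. The combination then exceeded Control by 17.07 points, RT by 18.04 and αPD-L1 by 19.15 (adjusted exact p = 0.0661 each).

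**Figure D3:**
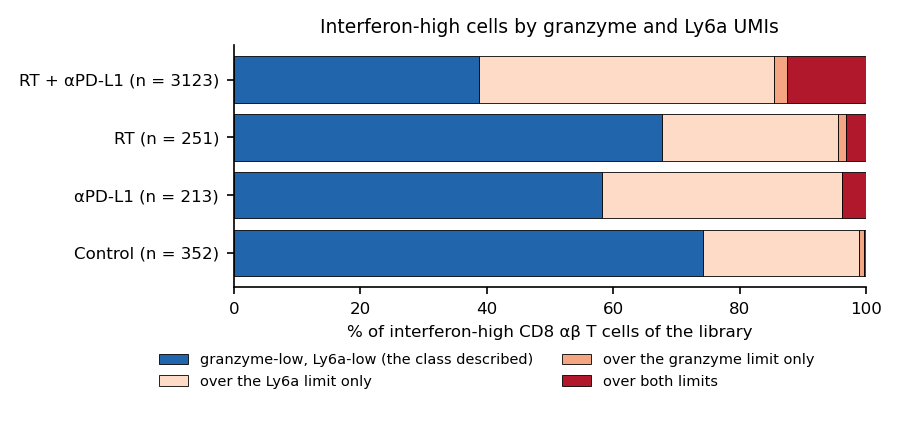
Composition of the interferon-high CD8 αβ T cells of each library, in percent, by whether they exceed the limits of 2 granzyme and 1 Ly6a UMIs. The granzyme-low Ly6a-low part is 38.8% in RT + αPD-L1 and 74.2% in Control.

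How the class relates to the rest of the CD8 cells was seen by ordering cells that met the other limits by their interferon UMIs. In RT + αPD-L1, Usp18 was at 22.7 CPM in cells without an interferon UMI, 95.5 CPM at 4 to 5, 129 CPM at 6 to 7 and 441 CPM at 20 or more. Control had 9.78, 57.5, 73.0 and 309 CPM at the same steps. Oasl2 reached 146 CPM in RT + αPD-L1 and 47.0 CPM in Control at 20 UMIs or more, where Control had 32 cells. Bst2 started at 153 CPM in RT + αPD-L1 and 102 CPM in Control without an interferon UMI. Tcf7 stayed between 483 and 578 CPM over all steps in RT + αPD-L1 and between 540 and 709 CPM in Control. Usp18, Oasl2 and Bst2 were thus higher in RT + αPD-L1 at each of these steps, also below the limit. The steps were equal in raw interferon UMIs but not in depth. Cells without an interferon UMI had a median of 5295 UMIs in RT + αPD-L1 and 6108 in Control. At 20 or more the medians were 7072 and 9425. What depth contributed to these differences was not tested. Cells of 1 library were summed here, so there is no error over mice.

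**Figure D4:**
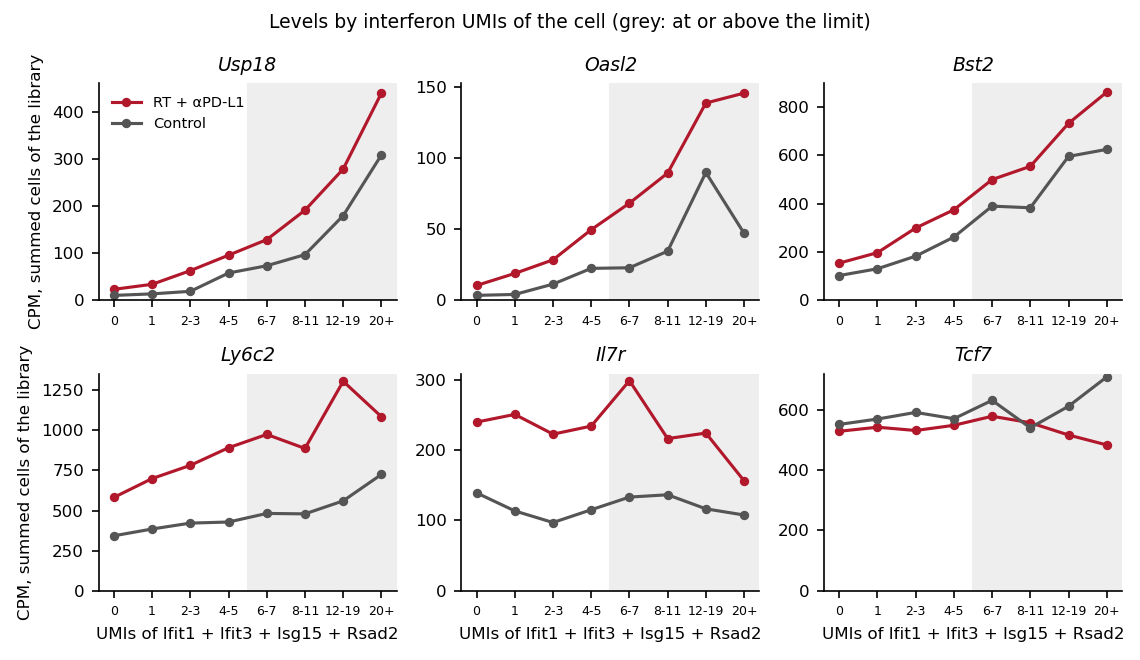
Level in CPM (summed cells of a library) of 6 genes against the UMIs of Ifit1, Ifit3, Isg15 and Rsad2 in the cell, for RT + αPD-L1 and Control; the grey area holds the interferon-high granzyme-low cells. Usp18 climbs to 441 CPM in RT + αPD-L1 and 309 CPM in Control, while Tcf7 shows no such slope.

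The second question was whether treatment changed the transcriptome of the cells themselves. UMIs were summed per mouse over the mice with at least 10 of the cells: mice 2 to 5 of RT + αPD-L1, mice 1, 2, 3 and 5 of RT, mouse 2 of αPD-L1 and mice 1, 2, 3 and 5 of Control. The single αPD-L1 mouse was assumed to vary like the others, and it was the mouse whose share stood apart in its group, so counts of called genes in the αPD-L1 comparisons do not show that there was no difference. Among 7988 genes outside the rule, edgeR's quasi-likelihood test with Benjamini-Hochberg adjustment called 0 genes (0%) in RT + αPD-L1 against Control, 0 (0%) in RT against Control, 0 (0%) in αPD-L1 against Control and 0 (0%) in RT + αPD-L1 against αPD-L1, at an adjusted p under 0.05. The numbers at an unadjusted p under 0.05 were 669, 374, 297 and 369. DESeq2 called 13 genes in the first of these comparisons and 1 in the second, and 0 in the αPD-L1 comparisons. The first count also turned on single mice. It was 26 when RT + αPD-L1 mouse 5 was left out, 4 when mouse 4 of that group or Control mouse 5 was, and 1 when Control mouse 2 was. RT against Control gave 1 without RT mouse 5.

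RT + αPD-L1 against RT called 2 genes (0.025%; 490 at an unadjusted p under 0.05). Plac8 (chr5:100553725-100572245, minus strand), which encodes a cysteine-rich protein of lymphocytes, had 278, 344, 254 and 235 CPM in RT + αPD-L1 and 64.5, 203, 115 and 72.1 CPM in RT. The groups did not overlap, and the log2 fold change was 1.39 ± 0.26 (SE; edgeR adjusted p = 0.0493). Ifi27 (chr12:103434211-103440239, plus strand), an interferon-induced mitochondrial protein, went the other way. It had 107, 96.2, 106 and 129 CPM in RT + αPD-L1 and 226, 261, 231 and 170 CPM in RT, with no overlap and a log2 fold change of -1.01 ± 0.16 (edgeR adjusted p = 0.00991). Control mice had 179, 196.5, 81.4 and 87.3 CPM of Plac8 and 174, 192, 238 and 145 CPM of Ifi27. Against Control neither was called (0.99 ± 0.23, adjusted p = 0.140 for Plac8; -0.77 ± 0.15, adjusted p = 0.0658 for Ifi27, both edgeR). Bst2 was not called against RT, although its groups did not overlap. It had 722, 735, 672 and 624 CPM in RT + αPD-L1 and 274, 278, 346 and 477 CPM in RT (edgeR adjusted p = 0.0715).

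Neither call held in every run with 1 mouse left out. The log2 fold changes of these runs were 1.09 to 1.84 for Plac8 and -1.16 to -0.91 for Ifi27. The count of 2 was 0 when RT mouse 1 or 3 or combination mouse 3 was left out, 1 when RT mouse 2 or combination mouse 2 was, and 4 when combination mouse 4 was. With RT mouse 1, 3 or 5, or combination mouse 2 or 3, left out, the edgeR adjusted p of Plac8 was 0.272, 0.186, 0.331, 0.136 and 0.128, at log2 fold changes of 1.25, 1.41, 1.09, 1.37 and 1.26. With RT mouse 1, 2 or 3, or combination mouse 3, left out, the edgeR adjusted p of Ifi27 was 0.0737, 0.0666, 0.0660 and 0.0520, at log2 fold changes of -0.98, -0.91, -0.99 and -0.93. Without RT mouse 2, the mouse with H2-Eb1 and Lyz2, Plac8 was at 1.84 (edgeR adjusted p = 0.00158). With HTODemux assignment the adjusted p was 0.334 for both. Plac8 was called in 4 and Ifi27 in 8 of 15 alternatives, and their signs held in all 15.

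In interferon-low cells of the same mice, many more genes were called. These cells were the more numerous class in every mouse but RT + αPD-L1 mouse 3 (520 against 621), and what cell number contributed was not tested. RT + αPD-L1 against Control gave 386 of 11663 genes, of which 218 (1.87%) were higher, and against RT it gave 81, of which 66 (0.566%) were higher. Plac8 was higher and Ifi27 lower in them too: the log2 fold changes against RT were 1.07 ± 0.13 and -0.36 ± 0.06 (edgeR adjusted p = 0.000171 and 0.00428). Usp18 was higher against Control by 1.46 ± 0.21 (edgeR adjusted p = 0.00034), with 25.7, 44.4, 17.5 and 30.1 CPM in RT + αPD-L1 and 8.97, 11.5, 7.80 and 11.6 CPM in Control. These cells were limited to 0 or 1 UMI of the 4 interferon genes in both groups.

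The interferon genes of the class were then read as groups for RT + αPD-L1 against Control. At an unadjusted p under 0.05, 350 of 7988 genes (4.38%) were higher and 319 (3.99%) lower, and the median log2 fold change was 0.00. By that measure 13 of 16 guanylate-binding proteins and immunity-related GTPases were higher (median log2 fold change 0.64), 5 of 6 of the oligoadenylate synthetase group (0.87), 4 of 5 ISG15 conjugation genes (0.65), 5 of 5 Schlafen genes (0.50), 2 of 3 IFIT genes (0.66) and 3 of 18 MHC class I genes (0.13). In the other families the counts were 4 of 11 signaling genes (0.28), 3 of 10 interferon-induced PARPs and helicases (0.39), 3 of 8 PYHIN genes (0.30), 2 of 7 nucleic acid sensors (0.42), 2 of 10 of the group of Bst2 (0.33) and 1 of 5 receptor genes (-0.05). No gene of these groups passed adjustment. In interferon-low cells of the same mice the medians of the first 6 groups, in that order, were 0.56, 1.06, 0.62, 0.39, 0.79 and 0.08. Called higher there (edgeR adjusted p under 0.05) were 10 of 16 guanylate-binding proteins and GTPases and 3 of 6 of the oligoadenylate synthetase group. So were 3 of 5 ISG15 conjugation, 4 of 6 Schlafen, 2 of 3 IFIT and 0 of 18 MHC class I genes. Over all genes there the share was 1.87%. These shifts were thus not particular to the class. The interferon UMIs of interferon-high granzyme-low cells had medians of 9 to 14 in these RT + αPD-L1 mice and 8 to 11.5 in these Control mice. Restricting the class to 6 to 12 UMIs, an alternative added after seeing the data, left medians of 0.48, 0.79, 0.70, 0.35, 0.54 and 0.09 for the first 6 groups in that order, and of 0.40, 0.26, 0.26, 0.26, 0.32 and -0.08 for the others. This limit is also in raw UMIs, while the whole class had a median depth of 6237 UMIs in RT + αPD-L1 and 7935 in Control. What this difference in depth contributed was not tested.

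The members with the lowest p were described by mouse. Oas2, which makes the messenger that activates RNase L, had 45.2, 40.6, 28.0 and 15.5 CPM in RT + αPD-L1 and 14.7, 7.02, 6.26 and 8.06 CPM in Control, a log2 fold change of 1.94 ± 0.37 (edgeR adjusted p = 0.0594). The RNA sensor Ifih1 (MDA5) had 149, 145, 131 and 124 CPM in RT + αPD-L1 and 36.8, 88.9, 37.6 and 81.9 CPM in Control (1.02 ± 0.22, edgeR adjusted p = 0.115). The groups of Ifih1 did not overlap, and those of Oas2 came as close as 15.5 and 14.7 CPM. Usp18 was at 0.77 ± 0.26 (edgeR adjusted p = 0.335) and overlapped. Socs1, a feedback inhibitor of the kinases, was at 1.02 ± 0.29 (edgeR adjusted p = 0.233).

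T cell genes were counted in the same way for that comparison, and 0 of them passed adjustment. At an unadjusted p under 0.05, 9 of 17 effector and cytotoxic genes were higher and 1 lower, and 0 of 17 inhibitory receptor and exhaustion genes were higher and 5 lower. Of 16 naive and memory genes 5 were higher and 2 lower, and of 20 antigen receptor response genes 1 was higher and 4 lower. Over all genes the shares were 4.38% higher and 3.99% lower. The median log2 fold changes of the 4 lists in that order were 0.78, -0.23, 0.23 and -0.06. With the class restricted to 6 to 12 interferon UMIs they were 0.29, -0.30, 0.27 and -0.18, so the effector median was smaller there. In interferon-low cells of the same mice the medians were 0.39, -0.16, 0.13 and -0.12. Called higher in those (edgeR adjusted p under 0.05) were 4 of 23 effector and 3 of 16 naive and memory genes. Called lower were 8 of 21 inhibitory receptor and exhaustion genes and 5 of 23 antigen receptor response genes. Of all 11663 genes there, 218 were called higher and 168 lower. Among the effector genes Ccl5, a chemokine, was at 1.27 ± 0.41 (edgeR adjusted p = 0.312) and the transcription factor Eomes at 1.34 ± 0.39 (edgeR adjusted p = 0.248), both with overlapping groups. For RT against Control they were at 1.378 and 1.196 (edgeR adjusted p = 0.995 each). There 6 of 17 effector genes were higher and 1 lower at an unadjusted p under 0.05 (median 0.534). For RT + αPD-L1 against RT 0 were higher and 0 lower (median -0.002). With 6 to 12 interferon UMIs these medians were 0.103 and 0.164. In interferon-low cells RT + αPD-L1 against RT called 3 of 23 effector genes higher, and RT against Control called 0. The genes that follow were chosen for their low p. Il7r, the receptor of the survival cytokine IL-7, had 268, 187, 182 and 265 CPM in RT + αPD-L1 and 100.7, 161, 119 and 99.4 CPM in Control, with no overlap and a log2 fold change of 0.88 ± 0.17 (edgeR adjusted p = 0.0594). In interferon-low cells it was higher by 0.90 ± 0.10 (edgeR adjusted p = 1.722e-05). Itga4, the α4 integrin, had 167, 165, 168 and 131 CPM in RT + αPD-L1 and 88.4, 67.8, 62.6 and 94.0 CPM in Control (0.92 ± 0.19, edgeR adjusted p = 0.0722). Dapl1 had 404, 386, 688 and 545 CPM in RT + αPD-L1 and 808, 784, 689 and 765.5 CPM in Control (-0.66 ± 0.14, edgeR adjusted p = 0.0821). The groups of Itga4 were apart, and those of Dapl1 nearly touched at 688 and 689 CPM. Lyz2, the myeloid gene, was at 8.47, 4.11, 15.4 and 3.44 CPM in RT + αPD-L1 and at 0, 0, 0 and 1.34 CPM in Control; its part in the other differences was not tested.

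**Figure D5:**
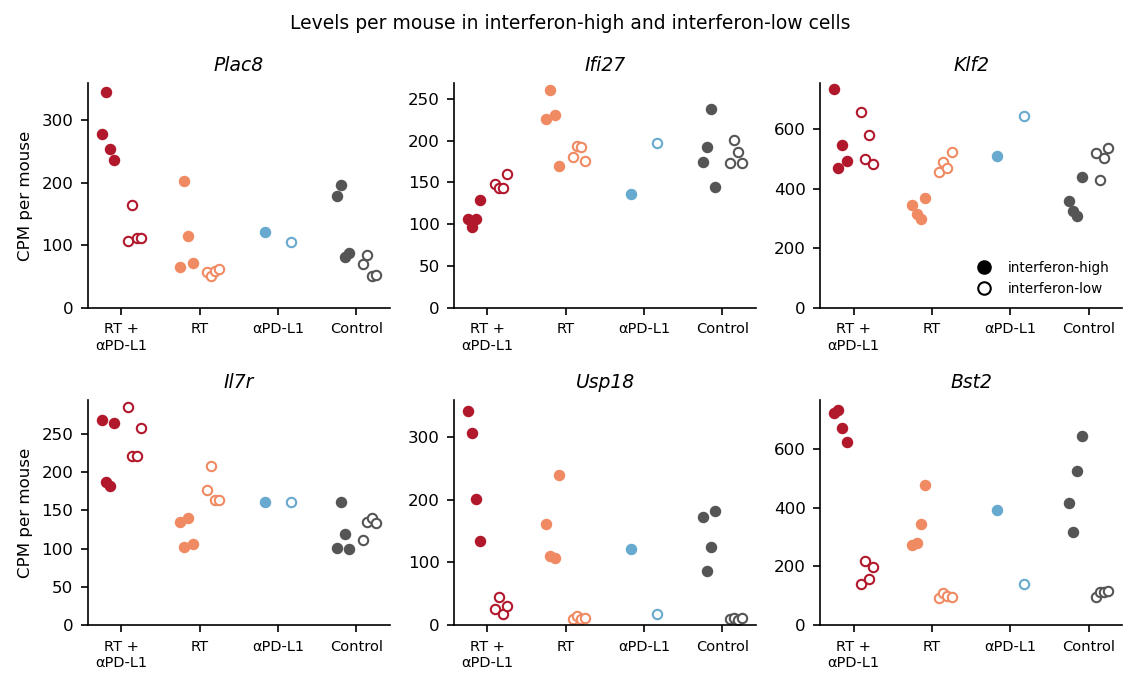
CPM per mouse of Plac8, Ifi27, Klf2, Il7r, Usp18 and Bst2 in interferon-high granzyme-low cells (filled) and interferon-low cells (open) of the mice with at least 10 of the cells (αPD-L1: 1 mouse). In the filled points Plac8 lies between 235 and 344 CPM in RT + αPD-L1 and between 64.5 and 203 CPM in RT, and Ifi27 has the opposite order.

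Whether a treatment difference in interferon-high granzyme-low cells differed from that in interferon-low cells was tested with the mouse as a block, over 11623 genes. RT + αPD-L1 against Control gave 1 gene (0.0086%), RT + αPD-L1 against RT gave 4 (0.0344%) and RT + αPD-L1 against αPD-L1 gave 0 (0%; 400 at an unadjusted p under 0.05, edgeR). Of these 5, 3 were T cell receptor V segments, which were counted but not interpreted. For Klf2 the log2 fold change against RT was 0.72 ± 0.15 in interferon-high granzyme-low cells (734, 469, 546.5 and 495 CPM in RT + αPD-L1, and 344, 314, 297 and 369 CPM in RT) and 0.17 ± 0.08 in interferon-low cells. The difference of the effects was 0.61 (edgeR adjusted p = 0.0189). For Ifit3b, the copy of a gene that the rule uses, the fold change was 0.37 ± 0.31 in interferon-high granzyme-low cells and 2.14 ± 0.28 in interferon-low cells, a difference of -1.67 (edgeR adjusted p = 0.002). The count against RT was 0 when combination mouse 3 was left out and 8 when combination mouse 2 was. That against Control was 2 to 4 when Control mouse 1, 2 or 5 or combination mouse 2 or 5 was left out, and that against αPD-L1 was 2 when combination mouse 4 or 5 was. These are few cells for a test of this kind, with 15 to 87 interferon-high granzyme-low cells in an RT mouse and 87 to 621 in an RT + αPD-L1 mouse.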

How the data were processed

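The deposited values were UMI counts of genes and hashtags in each barcode, which the authors made with Cell Ranger (version 6.1.2 in the matrix headers) and mm10. Barcodes were filtered as described above, and no doublet caller was run; barcodes with several hashtags were left out of values per mouse. For each hashtag, barcodes above the emptiest bin between the background and positive modes of log10 counts (bins of 0.1) were positive. HTODemux (Seurat 5.3.0), the assignment named in the study's methods, was an alternative. UMIs were summed per mouse, with at least 10 cells, and tested with edgeR 4.0.16 (TMM, filterByExpr, quasi-likelihood F test, 1 fit of all groups; mouse as a block for the difference of effects) in R 4.3.3. DESeq2 1.42.0 was an alternative. Shares were tested by exact permutation of mice (scipy 1.17.1). Sums per mouse held 121265 to 4138050 UMIs. The edgeR fit within the cells was tested on simulated counts. Mice marked by hashtags are replicates within 1 pooled library, so p-values do not cover variation between libraries. The members and lists were chosen with earlier results of these data known.

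Named genes were the rule's genes and Usp18, the 15 highest and 10 lowest genes with 1 sign in every mouse, and all called genes. From the lists, some of the genes with the highest CPM were named. Genes near the threshold, and those with low p in a list, were named after their values were seen. Predicted genes, ribosomal genes and receptor V segments were counted only. Promoter windows came from RefSeq, and gene positions from a GENCODE annotation of the same build. Values of a few genes are not reported here.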

Additional observations from a re-analysis of the deposited data

Results flagged for a closer look

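In αPD-L1 the share of mouse 2, 2.11%, stood apart from the other 4 mice (0.260% to 0.426%), with a gap of 0.911 of the group's range. Among 19 groups of 4 or 5 mice examined in this way (the share, and 5 genes within the cells) it was the only one, and chance marks about 1 in 20 groups.

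The treatment effect differed between interferon-high granzyme-low and interferon-low cells, by the edgeR test of the difference, for 5 genes. Against Control it was Trbv4 (1.46 on the log2 scale, adjusted p = 0.000369). Against RT they were Ifit3b (-1.67, adjusted p = 0.002), Trav7-5 (3.92, adjusted p = 0.00565), Klf2 (0.61, adjusted p = 0.0189) and Trbv13-1 (1.27, adjusted p = 0.0189). Trav7-5 had 0, 0, 0 and 6.005 CPM in the RT mice and its fold change depends on these low values. Ifit3b reads can be confused with those of Ifit3, which the rule held high in one class and near 0 in the other, so its value draws on what the rule used and supports nothing. What V segment use of few cells contributed was not tested.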

How the results depend on the processing

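Limits: each treatment is 1 library, few cells stand behind most mice, and levels near 10 CPM rest on few UMIs. No paired analysis was possible because hashtag numbers mark different mice in each library.

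Shares: the direction held in all 16 alternatives of each comparison. HTODemux assignment, which kept 32282 barcodes with 1 hashtag against 39220, gave differences of 7.84 points (RT + αPD-L1 minus Control), 8.69 (minus RT) and 9.415 (minus αPD-L1), all with adjusted exact p = 0.0397. Leaving out each mouse gave 5.18 to 8.98, 6.01 to 9.81 and 7.0 to 10.8 points for these, -1.25 to -0.08 for RT minus Control and -2.25 to -1.07 for αPD-L1 minus Control. Without the granzyme and Ly6a limits the combination's differences were 17.07, 18.04 and 19.15, and with at least 10 interferon UMIs 4.57, 4.95 and 5.65. Apart from HTODemux and single mice, no setting changed a call on shares.

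Called genes, given in the order RT + αPD-L1 vs Control, RT vs Control, αPD-L1 vs Control, RT + αPD-L1 vs RT, RT + αPD-L1 vs αPD-L1: without a filter on low counts 105, 17, 13, 48 and 39. DESeq2 gave 13, 1, 0, 1 and 0. In RT + αPD-L1 vs RT, relative log expression factors gave 1 gene, HTODemux assignment 1 and a minimum of 25 cells 0. A minimum of 5 cells, chosen after seeing the data, gave 1 in RT + αPD-L1 vs Control, 1 vs RT and 1 vs αPD-L1, and cells with 6 to 12 interferon UMIs, also chosen after, gave 3 vs Control and 7 vs RT. Leaving out each mouse gave 0 to 26, 0 to 1, 0, 0 to 4 and 0. For the difference of effects, no filter gave 7 vs Control, 14 vs RT and 5 vs αPD-L1, and leaving out each mouse gave 1 to 4, 0 to 8 and 0 to 2. The sign of 26 gene effects held in 390 of 390 settings. These genes were chosen with their values in these data known, and the settings reuse the same counts. Agreement of sign was therefore likely in advance, and nothing is read from it. The cause of these changes in counts was not tested. Leaving out αPD-L1 mouse 2 removes that group, so it gave no value for genes.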
